A study of Mus musculus with 12 samples.

Results

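The nuclear genes of the mitochondrial respiratory chain and ATP synthase were followed in RNA from a myelin-enriched light membrane fraction of mouse brain. Genes were taken by symbol: names beginning with Ndufa, Ndufb, Ndufc, Ndufs, Ndufv, Uqcr, Cox4 to Cox8 or Atp5, and Sdha to Sdhd, with pseudogenes left out. This gave 90 of the 21937 genes in the deposited table. All animals were male wild type mice of the c57Bl6/N strain, and 12 samples covered 4 ages with 3 samples each: P18 (postnatal day 18), P75 (postnatal day 75), 6 months and 24 months. No treatment or allele separates the groups. Replicates carry numbers in the labels, which do not tell whether each was a separate animal or a pool, so every p-value here reflects only the spread among the deposited samples.

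The respiratory chain passes electrons from NADH and succinate to oxygen and pumps protons across the inner mitochondrial membrane, and ATP synthase uses the proton gradient to make ATP. Complex I (NADH dehydrogenase) is built from core subunits, among them those that carry the flavin and iron-sulfur centres, and from many accessory subunits. Complex II is succinate dehydrogenase, complex III the cytochrome bc1 complex, complex IV cytochrome c oxidase and complex V ATP synthase. Some core subunits of complexes I, III, IV and V are encoded by mitochondrial DNA and are not among these genes. Oligodendrocytes, the cells that make myelin, have a high energy demand while they build the sheath, and mitochondria also lie in the axons that myelin surrounds. In RNA from a bulk fraction, fewer cells or fragments of one kind and less RNA in each cannot be told apart.

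The 90 symbols comprised 7 core subunits, 29 accessory subunits and 4 assembly factors of complex I, all 4 subunits of complex II, 8 of complex III, 20 of complex IV (with Ndufa4, which is now assigned to that complex, and its relative Ndufa4l2) and 15 of ATP synthase. The remaining 3 match the rule by older names only: Cox4nb is a subunit of the endoplasmic reticulum membrane complex now called Emc8, and Atp5s, also called coupling factor B, and its relative Atp5sl are not subunits of ATP synthase.

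Nuclear respiratory factor 1 (NRF1), GABP of the ETS family and YY1 are known to bind promoters of respiratory chain genes, so the proximal promoters were searched for their letters on both strands. In RefSeq windows of GRCm38.p6, from 250 bases before to 50 bases after the first listed start of each gene, 71 of the 90 genes were matched. The NRF1 letters, read as GCGC, any base and TGCGC in a row, lay in 17 of the 71 windows (23.9%), against 4.78% of 27025 windows of all genes. The ETS letters CCGGAAG lay in 16 (22.5%, against 9.12%) and the YY1 letters AAGATGGC in 8 (11.3%, against 2.88%). The 27025 windows were not limited to the 14987 genes tested here, so these shares do not compare the genes with other expressed genes. Some of the windows are shown, for genes that encode the same subunit and for genes with the same letters that moved differently with age. Atp5g1, Atp5g2 and Atp5g3 encode the same mature c subunit of the ATP synthase ring from separate genes, and the 120 bases before each start (chr11:96075632-96075751, chr15:102671048-102671167 and chr2:73911327-73911446, all on the minus strand) are printed first. Sdha (chr13:74350304-74350363, minus strand) and Ndufa5 (chr6:24527682-24527741, minus strand) hold an NRF1 match with the same 10 letters, and Ndufb4 (chr16:37654525-37654584, minus strand) and Sdhd (chr9:50603894-50603953, minus strand) share a different 10-letter match. Capitals mark the NRF1 letters.
Atp5g1: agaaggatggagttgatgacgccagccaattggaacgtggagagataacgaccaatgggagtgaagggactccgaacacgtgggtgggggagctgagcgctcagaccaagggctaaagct
Atp5g2: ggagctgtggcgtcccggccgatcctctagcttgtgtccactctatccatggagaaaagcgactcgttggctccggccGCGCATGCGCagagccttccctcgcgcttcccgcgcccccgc
Atp5g3: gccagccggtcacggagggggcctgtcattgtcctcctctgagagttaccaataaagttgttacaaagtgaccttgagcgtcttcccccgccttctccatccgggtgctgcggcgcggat
Sdha: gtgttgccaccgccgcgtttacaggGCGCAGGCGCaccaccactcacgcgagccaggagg
Ndufa5: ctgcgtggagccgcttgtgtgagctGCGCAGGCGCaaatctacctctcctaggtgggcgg
Ndufb4: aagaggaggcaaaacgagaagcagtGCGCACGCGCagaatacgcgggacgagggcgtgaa
Sdhd: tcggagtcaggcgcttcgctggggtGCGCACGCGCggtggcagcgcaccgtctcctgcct

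A match is a description of these letters and not evidence of a bound site. Of the Atp5g windows only that of Atp5g2 held the NRF1 letters. Between P75 and 6 months Ndufa5 fell and Sdha rose, and between P18 and P75 Ndufb4 rose and Sdhd fell. Over the 16 tested genes with NRF1 letters the median log2 fold change from P75 to 6 months was -0.65, and 12 of them fell. Over the 54 tested genes whose window lacked the letters it was -0.78, and 48 fell (all genes tested: 25.4% fell). With the trend on transcript length removed from each library, the medians were -0.12 with the letters and -0.13 without them.

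Each sample held 20299052 to 27214385 reads in genes. The deposited values are reads divided by 1 size factor per sample and are called normalised counts here. Markers of mature oligodendrocytes were present at every age: Mbp alone, the myelin basic protein gene, took 4.76% to 20.8% of all normalised counts in a sample. Markers of neurons, astrocytes, microglia and vessel cells were also present in all samples, so the fraction also held RNA of other cells. The 90 genes together took 2.30% to 2.77% of all normalised counts in the P18 samples and 2.35% to 2.82% in the P75 samples. In the 6-month samples they took 1.59% to 1.93%, below every younger sample, and in the 24-month samples 1.93% to 2.13%. Mbp itself was higher at P18 (9.47% to 20.8%) than at P75 (4.76% to 7.03%), and without its counts the share of the genes was 2.81% to 3.06% in P18 samples and 2.53% to 2.96% in P75 samples, against 1.67% to 2.04% in 6-month and 2.04% to 2.31% in 24-month samples, so the order of the P18 and P75 means depended on Mbp.

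Of the 90 genes, 88 reached a normalised count of 10 in at least 3 samples and were tested. Ndufs5, a complex I subunit, had 1 read in a single P18 sample and 0 in the others, and Cox8c, a testis isoform of complex IV, had 0 reads in all 12; a count of 0 allows up to 2.44 to 3.56 normalised counts in these libraries. Where a gene has processed pseudogenes, reads that match both copies may be missing from its count, so the levels of Ndufs5, Atp5j and similar genes are uncertain. The exons of 26 of the 90 genes also overlap exons of another gene in the GENCODE M21 annotation (Atp5a1 with Haus1, Atp5j with Gabpa and others), and the strand setting of the counting is not given in the sources used here.

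Levels between genes were compared as normalised counts per kilobase of 1 annotated transcript per gene, averaged over the 12 samples. The libraries differ in their trend on transcript length, which was not removed from these levels. Ranks between short and long transcripts are therefore uncertain. The highest were in complex IV: Cox4i1, the ubiquitous form of the Cox4 subunit, stood at 33744 per kilobase, Ndufa4 at 29841, Cox6c at 29739 and Cox8a at 25944. The highest of complex III was Uqcrh, the hinge protein that helps pass electrons to cytochrome c, at 20144 per kilobase, and of ATP synthase Atp5h, a stalk subunit, at 20137. Atp5b, the catalytic beta subunit, stood at 19154 per kilobase. Among accessory subunits of complex I Ndufb9 was highest at 18456, among core subunits Ndufs3 at 4686, and in complex II the iron-sulfur subunit Sdhb at 5165. Assembly factors were lower, with Ndufaf2 highest at 1008 per kilobase. Isoforms known from other tissues were also low: the heart and muscle isoforms Cox6a2, Cox7a1 and Cox8b stood at 368, 389 and 164 per kilobase, the testis isoforms Cox6b2 and Cox7b2 at 190 and 31.5, the lung isoform Cox4i2 at 49.7 and Ndufa4l2 at 19.3.

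**Figure D1:**
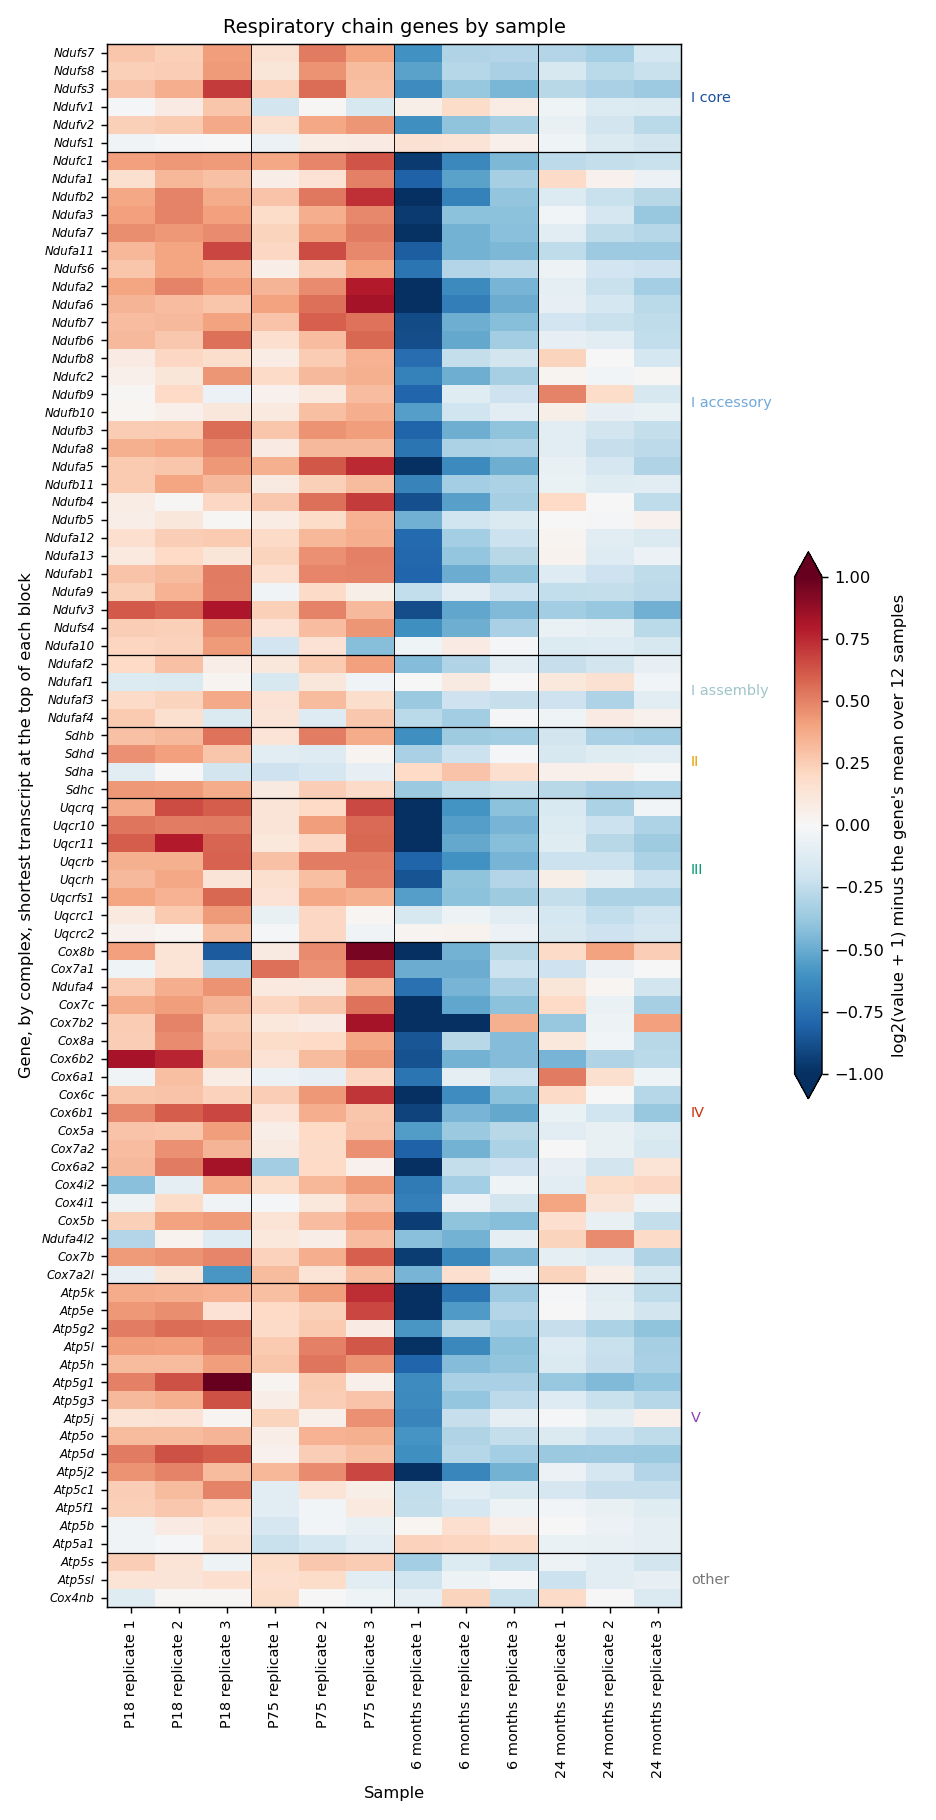
Deviation of 87 of the 88 tested genes, each from its own mean, as log2(normalised count + 1), in the 12 samples (columns, by age). Rows are grouped by complex and ordered by transcript length within each block, shortest first. Most rows are red (above the mean) at P18 and P75 and blue (below it) at 6 months. Some rows of long transcripts near the bottom of the blocks are pale or turn the other way, such as Ndufs1 and Sdha. This is not so in every block. Complex IV held no tested transcript over 1076 bases, and its highest log2 fold change from P75 to 6 months was -0.37. Among longer transcripts, Sdhc of complex II fell.

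In the deposited values respiratory chain transcripts were lowest in the 6-month samples. Of the 88 tested genes 76 differed at some age (limma moderated F test, Benjamini-Hochberg adjusted p under 0.05), against 77.4% of all 14987 genes tested, so that share alone does not set them apart from other genes. The lowest mean lay at 6 months for 72 of the 88 genes (81.8%), against 28% of all genes tested. With the transcript length trend of each library removed, the median deviation of the 88 genes was -0.17, -0.07 and -0.06 in the 6-month samples. It was -0.05, -0.06 and -0.07 in the 24-month samples, so these ages then overlapped. The highest mean was that of P18 in 45 genes and that of P75 in 34, while 4 genes peaked at 6 months and 5 at 24 months. All 28 tested accessory subunits of complex I and all 4 subunits of complex II differed at some age, and so did 14 of 19 of complex IV, 14 of 15 of complex V, 7 of 8 of complex III and 5 of 7 core subunits of complex I.

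From P75 to 6 months 69 of the 88 genes fell and 2 rose, with a median log2 fold change of -0.74. Over all genes tested 25.4% fell, 27.1% rose and 52.4% changed in either direction, with a median of 0.00. The falls comprised 27 accessory subunits, 4 core subunits and 3 assembly factors of complex I, 2 genes of complex II, 6 of complex III, 15 of complex IV, 11 of complex V and 1 of the genes that match by name only. Short transcripts in the whole table were also lower at 6 months, so values with the length trend of each library removed are also given.

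Among complex I accessory subunits 27 of 28 fell and 1, Ndufa10, did not pass the test. With the length trend removed 14 fell (50%, against 25.1% of all genes). Ndufa6, an LYR-motif subunit of the matrix arm, fell most. Its normalised counts were 6179, 6869 and 8312 at P75 and 2348, 2903 and 3321 at 6 months, against 5937, 5786 and 5665 at P18 and 4419, 4138 and 3883 at 24 months. The 6-month samples lay below all others, at 40.1% of the P75 level (log2 fold change -1.32, SE 0.122, adjusted p = 5.65e-07, limma). The matrix-arm subunits Ndufa2 and Ndufa5 fell by a similar amount, with log2 fold changes of -1.29 (SE 0.146) and -1.28 (SE 0.126). Ndufc1, a small membrane-arm subunit with the shortest transcript of all the genes (315 bases), fell from 2839 ± 241 (SD, n = 3) to 1260 ± 220, and Ndufa11, a membrane-arm subunit, from 4940 ± 756 to 2422 ± 337. Both calls were lost with the length trend removed, where Ndufc1 had a log2 fold change of -0.16 in place of -1.18 (adjusted p = 0.105) and Ndufa11 -0.22 in place of -1.03 (adjusted p = 0.104). Ndufv3, an accessory subunit of the module that takes up NADH, fell with a longer transcript of 1582 bases. It had 3144, 3745 and 3325 normalised counts at P75 and 1437, 1852 and 1954 at 6 months, and the ages did not overlap (log2 fold change -0.97, SE 0.110, adjusted p = 3.31e-06).

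The 7 core subunits of complex I went separate ways. Ndufs3, Ndufs7, Ndufs8 and Ndufv2 fell, by 0.85, 0.75, 0.68 and 0.78 on the log2 scale; Ndufs7 lost its call with the length trend removed (-0.14, adjusted p = 0.216). Ndufs1, the largest iron-sulfur subunit, did not pass the test: its normalised counts were 4630, 5095 and 5104 at P75 and 5359, 5327 and 4999 at 6 months, a log2 fold change of 0.08 (SE 0.079, adjusted p = 0.402). Ndufv1, which binds the flavin and oxidises NADH and was chosen for mention after its values were seen, had a log2 fold change of 0.22 (SE 0.091, adjusted p = 0.0536). Of the assembly factors Ndufaf2, Ndufaf3 and Ndufaf4 fell (-0.54, -0.48 and -0.30) and Ndufaf1, at 0.06, did not pass; with the length trend of the libraries removed Ndufaf2 stood at 0.14. The call for Ndufaf4 was lost without P75 replicate 1 or 3 or 6 months replicate 1 or 2 (log2 fold changes -0.28, -0.21, -0.27 and -0.24) and without any of the 24-month samples (-0.30 each) or P18 replicate 2 (-0.30). It was also lost without a filter (limma adjusted p = 0.0578) and with the replicate block (limma adjusted p = 0.0581).

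Subunits of complex II moved in opposite directions. Sdha, the flavoprotein that oxidises succinate, had 9062, 9287 and 9877 normalised counts at P75 and 11961, 12749 and 11712 at 6 months. It rose without overlap, to 1.29 times the P75 level (log2 fold change 0.37, SE 0.088, adjusted p = 0.00241), and 24-month samples (10832, 10812 and 10416) lay between. Sdhb, the iron-sulfur subunit that binds Sdha, fell: it had 6250, 8114 and 7344 at P75 and 3716, 4459 and 4465 at 6 months (log2 fold change -0.78, SE 0.111, adjusted p = 2.78e-05). Of the membrane anchors Sdhc fell from 3020 ± 161 to 2196 ± 117 (log2 fold change -0.46), and Sdhd stood at 2215 ± 131 and 2048 ± 225 (-0.12, adjusted p = 0.284). Sdha and Sdhb kept these calls when any 1 of the 12 samples was left out.

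In complex III 6 of 8 genes fell. Uqcrb, known as the ubiquinone-binding protein, had 5852, 6843 and 6841 normalised counts at P75 and 2755, 3149 and 3467 at 6 months (log2 fold change -1.06, SE 0.102, adjusted p = 8.1e-07). The small subunits Uqcr10, Uqcrq, Uqcr11 and Uqcrh fell by 1.04, 1.04, 0.99 and 0.84, and the Rieske iron-sulfur protein Uqcrfs1 by 0.73 on the log2 scale. Only Uqcrb and Uqcrfs1, 2 of the 8 (25%), fell once the length trend was removed, a share near the 25.1% of all genes. Uqcr10, Uqcrq, Uqcr11 and Uqcrh then stood at -0.13, -0.09, -0.08 and -0.04 (limma, adjusted p = 0.178, 0.521, 0.45 and 0.713). The large core proteins Uqcrc1 and Uqcrc2, chosen for mention after their values were seen, did not pass, at -0.16 (adjusted p = 0.189) and -0.05 (adjusted p = 0.675).

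In complex IV 15 of 19 genes fell and 4 did not pass. With the length trend removed 3 fell and 1 rose (15.8% and 5.26%, below the 25.1% and 24.1% of all genes). Cox6c, a membrane subunit, had 20299, 23126 and 28180 normalised counts at P75, 8139, 11152 and 12917 at 6 months and 19560, 17116 and 14090 at 24 months. The 6-month samples were below those of both neighbouring ages (log2 fold change from P75 -1.17, SE 0.164, adjusted p = 2.42e-05). Cox7b fell by 1.08, Cox6b1 by 0.89, and Cox8a and Cox7a2 by 0.78 each. Removing the length trend also changed which of these passed: the calls of Cox6b1 (-0.16, adjusted p = 0.178), Cox7a2 (-0.08, adjusted p = 0.409) and Cox8a (0.0183, adjusted p = 0.896) were lost and that of Cox7b was not. Cox4i1, the gene with the highest level per length, had 24434, 26565 and 30139 at P75 and 15376, 23767 and 21767 at 6 months. Its fall had a log2 fold change of -0.43 (SE 0.162, limma adjusted p = 0.0336). The call was lost without P75 replicate 2 (-0.44), P75 replicate 3 (-0.35) or 6 months replicate 1 (-0.24), and that last library was the lowest of the 12. It was also lost without a filter (limma adjusted p = 0.0563) and after quantile normalization (-0.25, limma adjusted p = 0.132). With the length trend removed the log2 fold change of Cox4i1 was 0.19.

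In complex V 11 of 15 genes fell and 1 rose. With the length trend removed 4 fell and 2 rose (26.7% and 13.3%, against 25.1% and 24.1% of all genes), so the share of falls was then near that of all genes. Atp5j2, the f subunit of the membrane part and chosen for mention after its values were seen, had 9303, 10275 and 11803 normalised counts at P75 and 3494, 4714 and 5330 at 6 months (log2 fold change -1.23, SE 0.134, adjusted p = 2.44e-06). Atp5h, a subunit of the peripheral stalk, fell from 16232 ± 1479 to 8368 ± 1219. The riser was Atp5a1, the alpha subunit of the catalytic head: it had 17753, 18402 and 19164 at P75 and 24306, 24108 and 23683 at 6 months, without overlap (log2 fold change 0.38, SE 0.101, adjusted p = 0.00448). It was called in each of the 12 fits with 1 sample left out. Atp5b, the beta subunit that pairs with it and chosen for mention after its values were seen, stood at 34454 ± 1678 and 38730 ± 2197 (0.17, adjusted p = 0.245). Of the 3 genes that match by name only, Atp5s fell from 540.2 ± 17.0 at P75 to 391 ± 27.1 at 6 months (SD, n = 3 each, log2 fold change -0.47), and Atp5sl and Cox4nb had log2 fold changes of -0.17 and -0.08 (adjusted p = 0.136 and 0.553).

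Most of the catalytic subunits named above that did not fall at 6 months have long transcripts. The 88 genes had a median transcript length of 751.5 bases (315 to 4942), against 2838 bases for all tested genes with a length. From P75 to 6 months short transcripts of any function fell: the median log2 fold change over all genes was -0.86 up to 600 bases, -0.62 from there to 1000, -0.30 to 1500, -0.12 to 2000 and 0.11 above 2000 bases. Respiratory chain genes followed the same order, with medians of -1.001, -0.68, -0.48, -0.13 and -0.00. Of them 25 of 26, 28 of 30, 11 of 15, 3 of 9 and 2 of 8 fell in these classes, whose limits were chosen after the values were seen. In the shortest class 64.4% of all genes fell, and in the longest 17.1%.

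**Figure D2:**
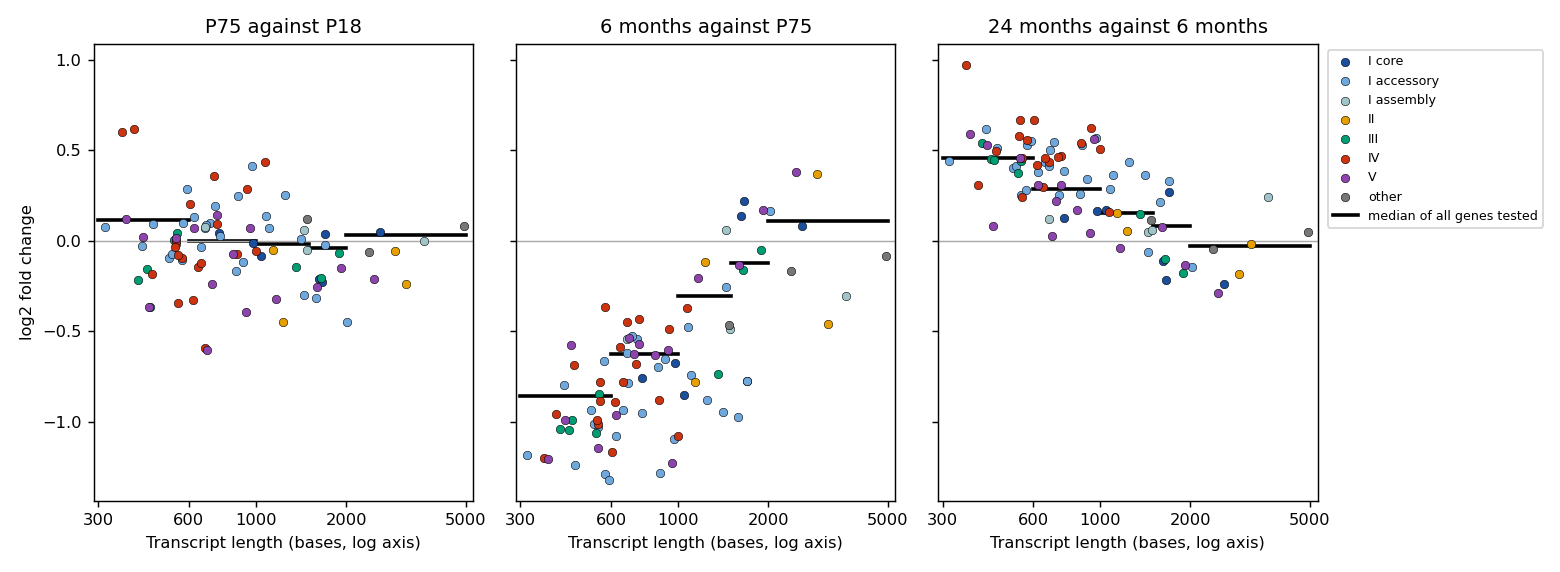
Log2 fold change of each tested respiratory chain gene (points, coloured by complex) against its transcript length in bases (log axis), for 3 consecutive comparisons of ages. Black steps are medians of all tested genes in 5 length classes. In the middle panel, 6 months against P75, the steps rise from -0.86 to 0.11 and most points follow them; in the left panel the steps are nearly flat.

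The length trend was measured in each library. The slope of all genes' deviations against log2 transcript length was -0.094, -0.091 and -0.074 per doubling of length at P18 and -0.037, -0.075 and -0.101 at P75. It was 0.209, 0.107 and 0.095 at 6 months and -0.005, 0.028 and 0.038 at 24 months. The 6-month libraries thus had the highest slopes of the 12, and 6 months replicate 1 the highest of these. The median deviation of the 88 genes from their means was -0.72 in that library and -0.37 and -0.30 in the other 6-month libraries, against 0.14 to 0.36 at P18 and P75 and -0.21 to -0.08 at 24 months. Because all 3 libraries of the age share the trend, age and whatever sets the length trend cannot be told apart.

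**Figure D3:**
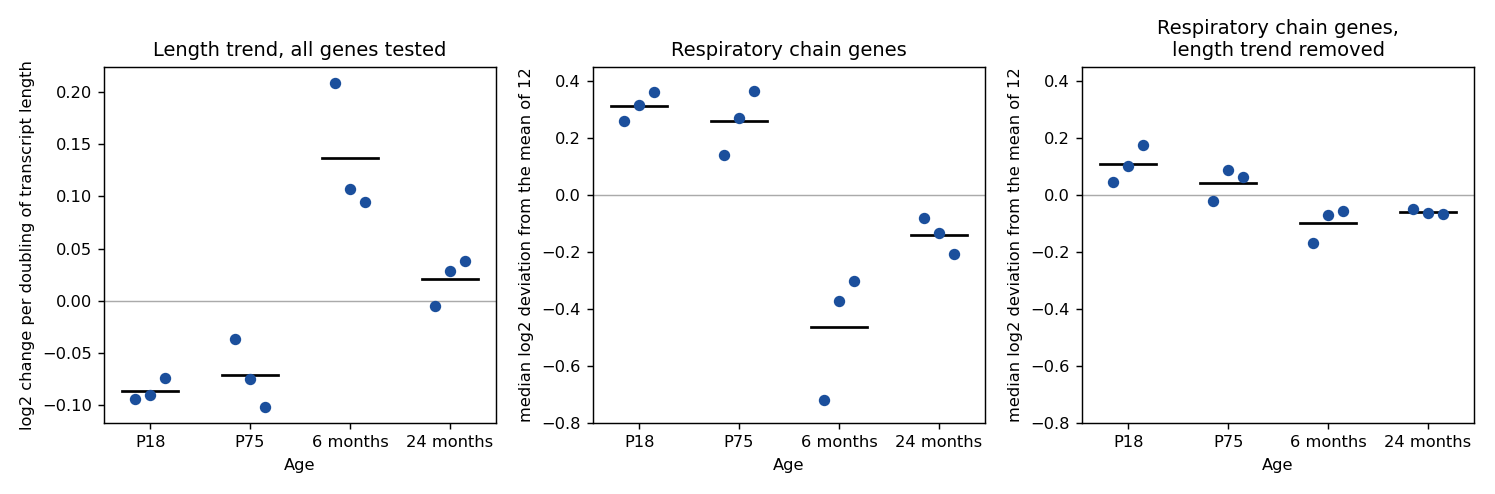
Left, slope of all tested genes' log2 deviations against log2 transcript length in each sample; middle, median log2 deviation of the 88 respiratory chain genes from their 12-sample means; right, the same after the length trend was removed from each library. Points are samples and bars the mean of 3. The 6-month samples are highest on the left (0.095 to 0.209) and lowest in the middle (-0.72 to -0.30). On the right they span -0.17 to -0.06 and overlap the 24-month samples (-0.07 to -0.05).

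The comparison was therefore repeated with the length trend taken out of each library. From P75 to 6 months 31 genes then fell and 7 rose (all genes: 25.1% fell and 24.1% rose), with a median log2 fold change of -0.12 against -0.02 for all genes. The 31 were all among the 69 that fell in the deposited values. Accessory subunits of complex I made up 14 of them, and the largest named falls were Ndufv3 (-0.84), Ndufa5 (-0.76), Ndufv2 (-0.69), Cox7b (-0.65), Ndufb4 (-0.64), Sdhc (-0.59), Ndufa6 (-0.56) and Uqcrfs1 (-0.50). To these were added, after their values were seen, Atp5j2 (-0.76), Ndufab1, the mitochondrial acyl carrier protein (-0.74), and Ndufs4, an accessory subunit needed for a stable NADH module (-0.68). The 7 that rose included Cox6a1 (0.41), Atp5g2 (0.33), Atp5a1 (0.33), Ndufv1 (0.32), Sdha (0.26) and Ndufaf1 (0.24). Atp5g2 and Cox6a1 are short transcripts (441 and 571 bases), and their log2 fold changes in the deposited values were -0.58 (called) and -0.37 (adjusted p = 0.0756), so their sign depended on this step. Sdha and Atp5a1 rose and Ndufv3, Ndufa5, Sdhb, Sdhc and Uqcrfs1 fell either way.

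**Figure D4:**
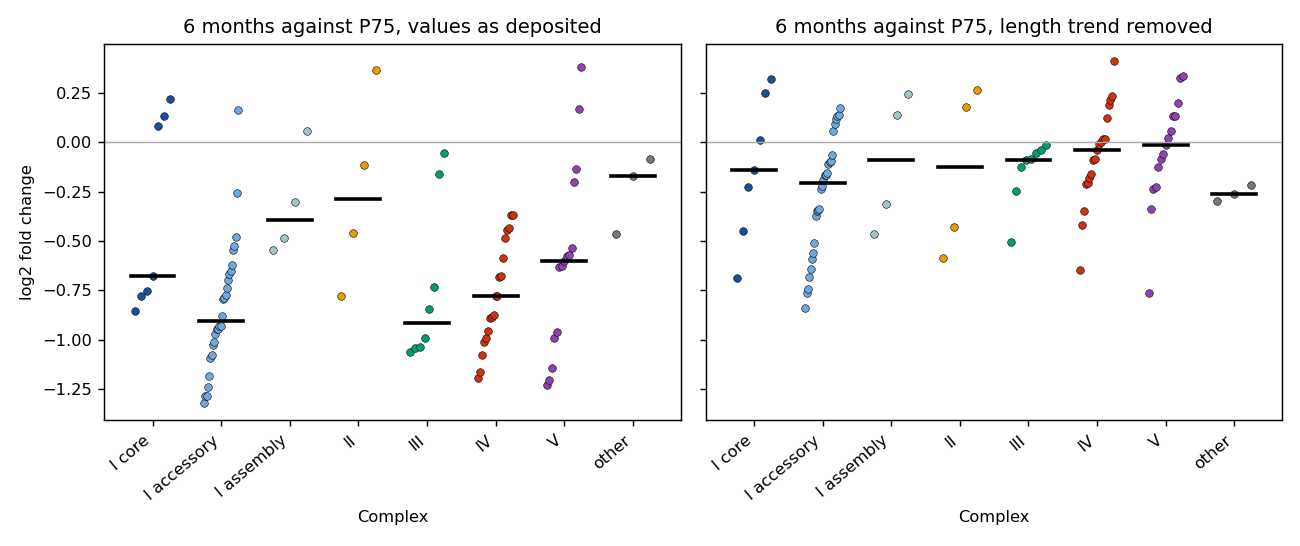
Log2 fold change from P75 to 6 months of each tested gene (points) by complex, with the median of each group as a bar, in the deposited values (left) and with the length trend removed (right). Medians of the larger groups move from -0.91, -0.92, -0.78 and -0.60 (complex I accessory, III, IV and V) to -0.21, -0.09, -0.04 and -0.01.

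From P18 to P75, between active myelination and young adulthood, fewer of the genes changed: 3 rose and 12 fell of 88, with a median log2 fold change of -0.03 (all genes: 21.7% rose, 18.7% fell and 40.4% changed in either direction). The share that changed was below that of all genes. With the length trend removed 6 rose and 16 fell (all genes: 22% and 19.4%). The falls included ATP synthase and complex II subunits. Atp5g1, 1 of the 3 genes for the c subunit, had 6637, 7264 and 9364 normalised counts at P18 and 4753, 5619 and 4831 at P75, without overlap (log2 fold change -0.60, SE 0.120, adjusted p = 0.000888). Sdhd, a membrane anchor of complex II, fell from 3191, 3082 and 2802 to 2155, 2125 and 2365 (log2 fold change -0.45, SE 0.089, adjusted p = 0.000834). Atp5d, the delta subunit of the rotor, and Atp5g2 fell by 0.39 and 0.37, and all 4 of these were called in each fit with 1 sample left out.

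Cox6a2, the muscle isoform of a complex IV subunit, had 299, 343 and 426 normalised counts at P18 and 187, 275 and 247 at P75 (log2 fold change -0.59, SE 0.196, adjusted p = 0.0239); it was not called without P18 replicate 3 (-0.46) or P75 replicate 1 (-0.43). The falls of Ndufv3 (-0.32) and Sdhc (-0.24) were likewise lost without some samples, Ndufv3 without P18 replicate 3 (-0.25), P75 replicate 1 (-0.26) or P75 replicate 3 (-0.30), and Sdhc without P18 replicate 1 (-0.22), P18 replicate 2 (-0.23) or P75 replicate 1 (-0.19). Ndufv3 was also not called with the GC trend removed (limma adjusted p = 0.0632), nor Sdhc with only the ages compared (limma adjusted p = 0.0639). Cox7a1, the heart and skeletal muscle isoform of the Cox7a subunit, rose most. It had 144, 163 and 121 normalised counts at P18 and 217, 203 and 233 at P75, without overlap (log2 fold change 0.62, SE 0.136, adjusted p = 0.00181), and was called in every fit with 1 sample left out. Ndufb4, a membrane-arm subunit, rose from 4603 ± 320 to 6157 ± 904 (0.41, adjusted p = 0.0289) and was not called without P18 replicate 1 (0.40), P18 replicate 2 (0.37), P75 replicate 2 (0.39) or P75 replicate 3 (0.32). Cox7a2l, which helps join complexes III and IV into supercomplexes, had 7131, 8211 and 5047 at P18 and 9436, 8331 and 9319 at P75 (0.44, adjusted p = 0.0487). With 1 sample left out it was called in 3 of the 12 fits, those without P18 replicate 2, 6 months replicate 1 or 6 months replicate 2, and without P18 replicate 3 its log2 fold change was 0.24. Cox7a2l was also not called by edgeR (adjusted p = 0.0728). Nor did limma call it with the GC trend removed (adjusted p = 0.0603), without a filter (0.07) or with only the ages compared (0.0543). Without P75 replicate 1 the whole comparison gave 5 genes that rose and 5 that fell. Without P18 replicate 1, P75 replicate 2 or P75 replicate 3, 1 gene rose, and without 6 months replicate 1, which shares the estimate of spread, 5 rose.

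From 6 to 24 months 40 of the 88 genes rose and 1 fell, with a median log2 fold change of 0.32 (all genes: 10.8% rose, 8.34% fell and 19.2% changed in either direction, median 0.03). The risers were 21 accessory subunits of complex I, 11 genes of complex IV and 4 each of complexes III and V. Ndufa1, a small membrane-arm subunit, rose from 1800, 2175 and 2504 normalised counts to 3592, 3252 and 3028, without overlap (log2 fold change 0.62, SE 0.125, adjusted p = 0.00449). Ndufa6 rose by 0.55 (SE 0.122, adjusted p = 0.00709), and these calls held without any 1 sample. Both were lost with the length trend removed, where Ndufa1 had 0.21 (adjusted p = 0.078) and Ndufa6 0.22 (adjusted p = 0.0511). Cox6c rose by 0.67 (SE 0.164, adjusted p = 0.0115), a call lost without 6 months replicate 1 (0.48) or 24 months replicate 1 (0.56). Cox8b, the muscle isoform of Cox8, had the largest value, 0.97 (SE 0.312, adjusted p = 0.0394), at low counts of 35.0 ± 12.3 and 66.5 ± 5.24. Its call was lost without P75 replicate 2 (0.97), 6 months replicate 1 (0.66) or 2 (1.08), or 24 months replicate 1 (1.02), 2 (0.91) or 3 (0.99), and with the length trend removed (0.53, adjusted p = 0.168). It was also lost without a filter (limma adjusted p = 0.0618) and after quantile normalization (limma adjusted p = 0.0721). The gene that fell was Ndufs1, from 5359, 5327 and 4999 to 4695, 4380 and 4250 (log2 fold change -0.24, SE 0.079, adjusted p = 0.0477), and with 1 sample left out it was called in 3 of the 12 fits, those without P18 replicate 3, P75 replicate 1 or P75 replicate 3. It was also not called by edgeR (adjusted p = 0.0634), with the replicate block (0.072), without a filter (0.0534) or after quantile normalization (0.0549).

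The rise to 24 months rested on few libraries. Without 6 months replicate 1 only 3 of the 88 genes were called, without 24 months replicate 1 only 6 and without 24 months replicate 2 only 11, all of them higher. With the length trend removed 7 rose and 4 fell (all genes: 9.91% rose and 6.51% fell), with a median of 0.06. The 7 were Cox7b, Cox6c, Ndufa5, Ndufb4, Atp5j2, Cox5b and Ndufa13, and the 4 were Atp5a1, Atp5g2, Ndufs1 and Ndufv1, named because they are all the calls of that comparison. Atp5a1 had 24306, 24108 and 23683 normalised counts at 6 months and 19869, 19689 and 19445 at 24 months, groups that do not overlap (log2 fold change -0.29, adjusted p = 0.0542 in the deposited values).

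At 24 months most of the genes were lower than in young adults. Against P75, 58 of the 88 genes were lower, with a median log2 fold change of -0.42 (all genes: 20.7% lower, 25% higher, 45.6% in either direction and a median of -0.00). By limma 0 were higher, also at an unadjusted p under 0.05; edgeR gave 0 (1 unadjusted) and DESeq2 1. The largest falls were in complex I: Ndufa11 had 4151, 5658 and 5011 normalised counts at P75 and 3012, 2805 and 2795 at 24 months (log2 fold change -0.77, SE 0.124, adjusted p = 0.000128). Ndufa6 and Ndufv3 were lower by a similar amount, at -0.77 (SE 0.122) and -0.76 (SE 0.110). With the length trend removed 27 genes were lower and 5 higher (all genes: 21% and 23.9%), and Ndufv3 (-0.69), Sdhc (-0.56), Ndufs3 (-0.45) and Uqcrfs1 (-0.45) were still among the lower. The 5 higher ones were Cox6a1 (0.64), Cox4i1 (0.40), Ndufb9 (0.40), Ndufa1 (0.35) and Ndufa4 (0.32), none of which was called in the deposited values.

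Between P18 and 6 months 74 genes fell and Sdha alone rose (all genes: 30.8% fell, 32.2% rose and 62.9% changed in either direction), with a median log2 fold change of -0.78. The comparison shares its samples with those above. Uqcr11, a small subunit of complex III, fell from 7377, 8408 and 7260 normalised counts to 2180, 3414 and 3616 (log2 fold change -1.35, SE 0.159, adjusted p = 1.81e-06). Ndufv3 fell from 4063, 3990 and 4656 to 1437, 1852 and 1954 (log2 fold change -1.29, SE 0.110, adjusted p = 6.24e-08). Sdha stood at 9773 ± 595 and 12141 ± 541 (0.31, SE 0.088, adjusted p = 0.0055). With the length trend removed 45 fell and 5 rose (all genes: 30.8% and 29.8%), and Ndufv3 (-1.10) and Sdhc (-0.81) kept large falls.

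**Figure D5:**
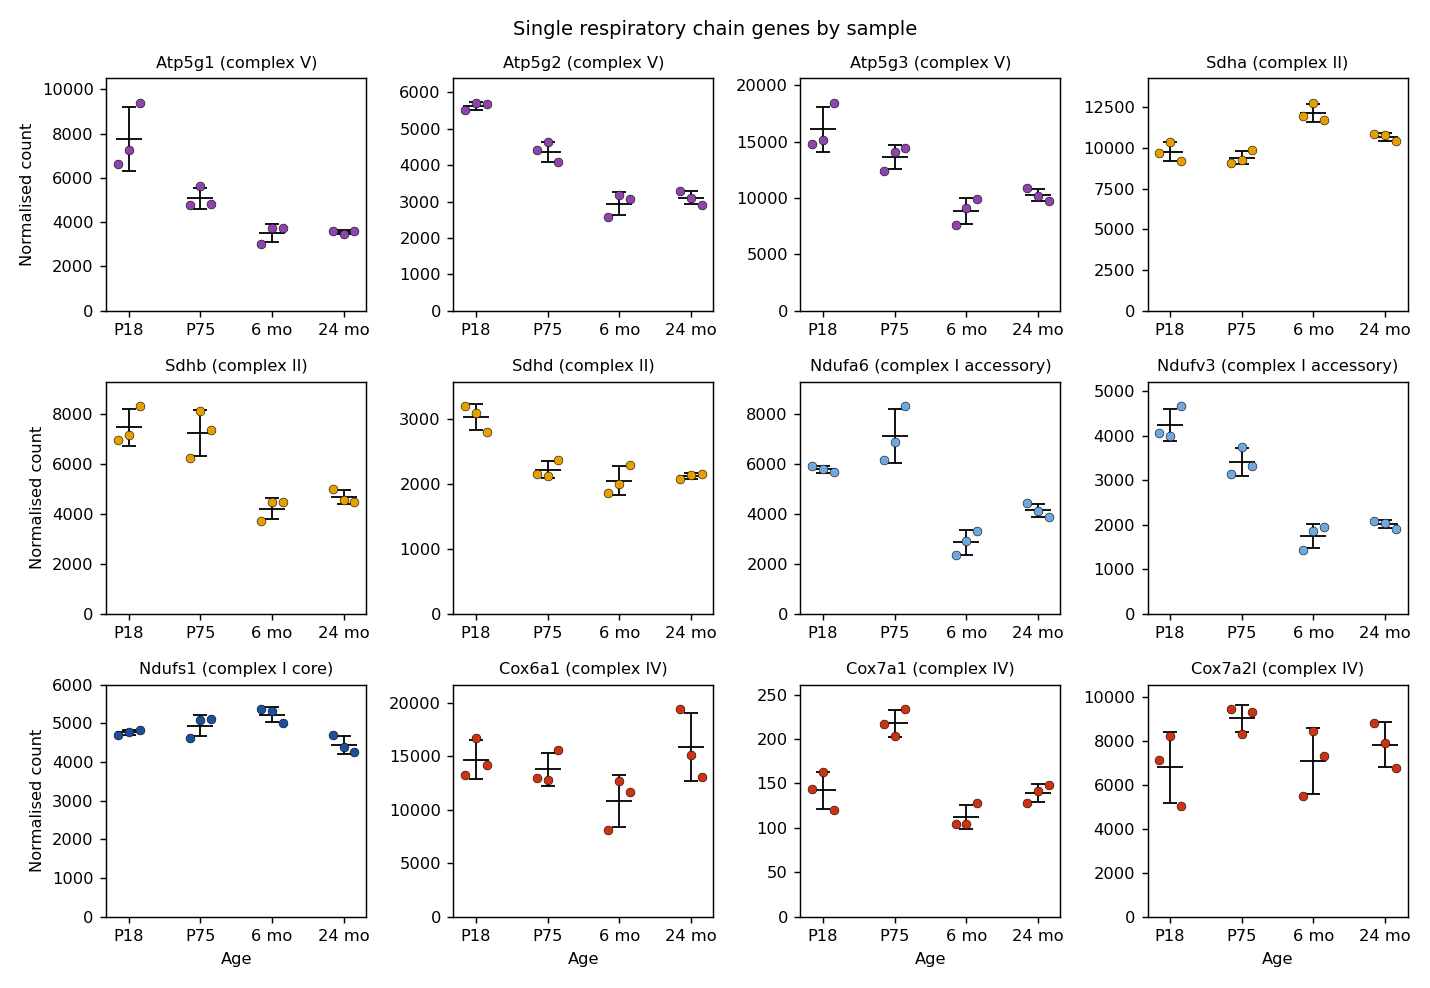
Normalised counts of 12 respiratory chain genes in each sample (points), with the mean and SD of 3 samples per age (bars); each panel starts at 0. Atp5g1, Atp5g2, Atp5g3 and Ndufv3 have a lower mean at each age up to 6 months (with the length trend removed the 3 Atp5g genes do not fall from P75 to 6 months), Sdhd steps down between P18 and P75 only, Sdha is highest at 6 months, and Cox7a1 is highest at P75.

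Genes that supply the same subunit in different tissues were set side by side. Of the c-subunit genes, Atp5g3 was the most abundant at every age (16120 ± 1994 normalised counts at P18, then 13654 ± 1087, 8869 ± 1135 and 10270 ± 566), Atp5g1 followed 7755 ± 1429, 5068 ± 479, 3499 ± 414 and 3542 ± 79.4, and Atp5g2 5628 ± 99.5, 4371 ± 271, 2941 ± 321 and 3103 ± 185. All fell from P75 to 6 months in the deposited values, with log2 fold changes of 0.13, 0.33 and 0.0224 (Atp5g1, Atp5g2 and Atp5g3) once the length trend was removed, and Atp5g1 and Atp5g2 had already fallen from P18 to P75, where Atp5g3 had a log2 fold change of -0.24 (adjusted p = 0.122). Ubiquitous isoforms exceeded their muscle or testis relatives at every age. Cox6a1 stood at 14704 ± 1783 at P18 and 13777 ± 1567 at P75, and Cox6a2 at 356 ± 64.2 and 236 ± 44.9. Cox7a2 held 9196 ± 1245 at P75 and Cox7a1 218 ± 15.1, and Cox4i1 held 27046 ± 2882 and Cox4i2 44.0 ± 3.75. Cox7b2 lay near the filter, at 6.5 to 28.7 in single samples, and Ndufa4l2 at 12.4 to 24.9.

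Other genes of mitochondrial energy supply were read from lists outside the symbol rule, to be set against the 27.1% of all genes that rose and the 25.4% that fell from P75 to 6 months. Of 35 tested assembly factors and electron carriers, 18 fell and 3 rose from P75 to 6 months (median log2 fold change -0.30). Higd2a, an assembly factor of complex IV, fell by 0.97, Atpif1, the ATP synthase inhibitor, by 0.84, and Sdhaf1, an assembly factor of complex II with a transcript of 2490 bases, by 0.94; the call for Atpif1 was lost with the length trend removed (-0.03). Of 18 regulators of mitochondrial biogenesis 9 fell and 1 rose (median -0.26). Ssbp1, which coats single-stranded mitochondrial DNA, fell by 1.25 and Mterfd1, of the mitochondrial transcription termination factor family, by 0.70, while the coactivator gene Pprc1 rose by 0.31 (0.13 and not called with the length trend removed). Of 18 genes of pyruvate dehydrogenase and the citrate cycle 5 rose and 3 fell (median 0.06), a share of rises (27.8%) near that of all genes. Ogdh, a subunit of oxoglutarate dehydrogenase, rose by 0.22 (0.05 and not called with the length trend removed), and Pdhb and Dlat of pyruvate dehydrogenase had log2 fold changes of -0.13 and -0.02 (adjusted p = 0.184 and 0.841). Of 17 glycolysis genes 9 rose and 2 fell (median 0.38). Pgk1, phosphoglycerate kinase, rose by 0.77 and Tpi1, triosephosphate isomerase, by 0.64; Eno1, an enolase gene with pseudogene copies and low counts, had 56.8 ± 23.2 at P75 and 235 ± 36.6 at 6 months (log2 fold change 2.11). With the length trend removed, 13 assembly factors and carriers fell and 2 rose from P75 to 6 months, and 12 regulators fell and 1 rose. Of the citrate cycle list 4 then rose and 2 fell, and of the glycolysis list 8 rose and 1 fell (all genes: 24.1% rose and 25.1% fell). From 6 to 24 months 9 of the 17 glycolysis genes fell (52.9%, against 8.34% of all genes). From P18 to P75 the 3 list counts were 7 fallen of 35, 7 of 18 and 7 of 17 for assembly factors and carriers, the citrate cycle and glycolysis (20%, 38.9% and 41.2%, against 18.7% of all genes).

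Cell markers moved with age beside these results, and their part in them was not tested. The summed normalised counts of 12 microglial markers were 7899 to 9056 in P18 samples, 12087 to 13549 in P75 samples, 13624 to 15478 in the 6-month and 21687 to 27120 in the 24-month samples. The sum of 15 neuronal markers was 230349 to 277871 in P18 samples and 254749 to 288396 in P75 samples, then 260450 to 272332 in the 6-month and 235224 to 248819 in the 24-month samples, so every 24-month sample lay below every P75 and 6-month sample. From P75 to 6 months, when 27.1% of all genes rose and 25.4% fell, 10 of the 15 neuronal markers rose and 3 fell. Of the 12 microglial markers 4 rose and 1 fell. Of 13 markers of mature oligodendrocytes 1 rose and 1 fell in that step, of 10 astrocyte markers 2 rose and 1 fell, and of 11 markers of vessel cells 4 rose and 1 fell. With the length trend removed 8 neuronal markers rose and 3 fell, and 8 microglial markers rose and 1 fell (all genes: 24.1% and 25.1%). Markers of mature oligodendrocytes then gave 2 rises and 1 fall, those of astrocytes 1 and 1, and those of vessel cells 4 and 2. From P18 to P75, when 21.7% of all genes rose and 18.7% fell, 2 of the 13 markers of mature oligodendrocytes rose and 7 fell. In that step 8 of the 12 microglial markers rose and 0 fell, and of the 15 neuronal markers 2 rose and 6 fell. Astrocyte markers gave 2 rises and 2 falls of 10, and markers of vessel cells 3 and 1 of 11. No marker on these 5 lists was at 0 in all samples.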

How the data were processed

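RNA-seq values of 12 samples of a myelin-enriched fraction of mouse brain were analysed, 3 at each of 4 ages, grouped by the age in the labels. The deposited signal values are gene reads that the authors scaled by a size factor of each sample; the submitters' processing notes name TopHat, HTSeq, DESeq and the build mm9, without versions, and counting on a strand is not given in the sources used here. Every column has 1 smallest step. Within 0.02 normalised counts, 100% of its values are whole multiples of that step, which gave back the reads (20299052 to 27214385 per sample). Floors of 3 reads cover counting error only.

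Values were tested as log2(value + 1) with limma 3.58.1 (R 4.3.3, mean-variance trend), all 12 samples in 4 groups, for 14987 genes with a value of at least 10 in at least 3 samples. Fold changes of low genes are understated on this scale. Tests were two-sided, with Benjamini-Hochberg adjustment over all genes tested and a threshold of 0.05. Pairs of ages share samples and are not independent. "Rose" and "fell" are used for genes past the threshold.

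Transcript lengths came from GENCODE M21 (GRCm38; 1 transcript per gene, for 21560 of 21937 genes and all 90 respiratory chain genes) and promoters from RefSeq (GRCm38.p6). No position in the files' own build was used. The length trend was removed per library by lowess (span 0.3) of log2 deviations on log2 length, keeping the library mean.

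Alternatives were a pseudocount of 5, no filter, a mean of at least 50, edgeR 4.0.16 and DESeq2 1.42.0 on the recovered reads, a replicate block, only the ages compared, quantile normalization, removal of the length or GC trend and each sample left out. Removing the length trend together with leaving out 6 months replicate 1 was added after seeing the data. The scripts were tested on simulated data. Genes and lists were chosen with earlier results of these data known. Genes were named by rule (per complex the 3 with the lowest F test p and the highest level per length, per comparison the 3 largest rises and falls, fixed isoform groups, genes under the filter, and at most 3 of each other list); others are said to be chosen after their values were seen or are named as the full set of a count. Values of 1 gene are not reported here.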

Additional observations from a re-analysis of the deposited data

How the results depend on the processing

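The counts of respiratory chain genes past the threshold were compared with those under each alternative. With the length trend removed, 38 genes were called from P75 to 6 months in place of 71, 11 from 6 to 24 months in place of 41, and 32 from P75 to 24 months in place of 58. With 6 months replicate 1 also left out, an alternative chosen after seeing the data, the counts were 29, 0 and 31, and 39 in place of 75 from P18 to 6 months. The count of 0 by limma had 14 genes at an unadjusted p under 0.05 (9 higher and 5 lower), and no other tool was run on those values. With single samples left out, the count from 6 to 24 months ranged from 3 to 47. The other counts stayed within 1.5 times.

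Among named genes called in the deposited values or under the alternative, 15 values changed sign, all 15 with the length trend removed. From P75 to 6 months they were Atp5g1 0.13, Atp5g2 0.33, Atp5g3 0.0224, Cox4i1 0.19, Cox5a 0.13, Cox6a1 0.41, Cox7a1 0.003, Cox8a 0.0183, Ndufa1 0.14, Ndufa4 0.22, Ndufaf2 0.14 and Ndufb9 0.13. From 6 to 24 months they were Atp5g2 -0.31, Cox5a -0.0053 and Ndufc1 -0.0349. The cause was not tested. Over 156 gene and comparison pairs, 3108 of 3423 alternative values kept their direction and side of the threshold, 165 lost a call and 58 gained one. A further 77 values changed sign without a call in either fit, 22 of them with the length trend removed and 55 under other alternatives.

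With the replicate number as a block, 14, 71 and 38 genes were called in the 3 consecutive comparisons, in place of 15, 71 and 41. Same-numbered samples did not deviate together (18 pairs, r from -0.18 to 0.16, median -0.04, against a median of 0.005 for different numbers). On that ground the numbers were not taken as pairs. Of the 12 samples, 6 correlated best with a sample of their own number, and whether that count exceeds chance was not tested.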

Other observations

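Mitochondrial carriers, channels and import genes did not all follow the respiratory chain. Of 26 tested, 12 fell and 8 rose from P75 to 6 months (median log2 fold change -0.21), against 25.4% and 27.1% of all genes; with the length trend removed 9 fell and 4 rose. From P18 to P75 7 fell and 1 rose, against 18.7% and 21.7% of all genes. Phb2, a prohibitin of the inner membrane, stood at 2371 ± 96.1 (SD, n = 3) normalised counts at P18, 1826 ± 136 at P75 and 1330 ± 98.2 at 6 months, and fell in both steps. Tomm22, a receptor of the outer membrane import pore, fell from P75 to 6 months by 0.68, and Brp44l, a subunit of the mitochondrial pyruvate carrier, by 0.98. With the length trend removed these falls were 0.55 and 0.52.

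Cox4i1, Cox6a1 and Ndufb9, singled out after their values were seen, had 32624, 19385 and 17951 normalised counts in 24 months replicate 1, the highest of the 12 samples for each, and 15376, 8137 and 7338 in 6 months replicate 1, the lowest. Cytochrome c itself, encoded by Cycs, also chosen after its values were seen, fell from 11437 ± 834 at P75 to 7433 ± 768 at 6 months with a long transcript of 3123 bases (log2 fold change -0.62, SE 0.097, limma), and by 0.75 with the length trend removed. Usmg5, a small ATP synthase subunit chosen in the same way, fell by 1.37, and by 0.39 with the trend removed.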
